A study of Saccharomyces cerevisiae with 27 samples.

Results

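The genes described here are the seripauperins (PAU genes) and a set of other yeast genes that answer to low oxygen. They were chosen by name: every probe set whose platform gene symbol is PAU followed by a number, and the probe sets of 21 listed genes. The rule found 35 probe sets of 32 genes, among 5716 probe sets tested that carry 5449 gene symbols. Of these, 16 probe sets belong to 13 PAU genes, 6 to the cell wall mannoprotein genes DAN1, DAN4 and TIR1 to TIR4, and 6 to genes of respiration, heme, lipid and translation with a known response to oxygen or heme (AAC3, ANB1, COX5B, HEM13, HEM14 and OLE1). A further 4 encode transcription factors (ROX1, MOT3, SUT1 and SUT2), and 3 encode transport proteins or a sterol-binding protein (FET4, AUS1 and HES1). Of the 21 listed names 19 were found as symbols. The other two, DAN2 and DAN3, are synonyms of PAU23 and PAU24 in the R64 gene table, and both of those genes are members under their PAU names.

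Budding yeast uses heme, whose synthesis needs oxygen, as its gauge of oxygen. With heme present, Hap1 activates genes of aerobic life and also ROX1, whose product represses a set of hypoxic genes, and Mot3 represses anaerobic cell wall and sterol genes together with the general corepressor Tup1 with Cyc8. When heme or sterol runs low this repression is lifted, Upc2 and Sut1 take part in activation, and the cell wall exchanges its aerobic mannoproteins for those of the DAN, TIR and PAU families. PAU genes are the largest gene family of this yeast, lie mostly near chromosome ends, and are very alike in sequence, so a probe made for one can bind the RNA of others.

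RNA from 27 cultures was hybridised to Affymetrix arrays that hold 1 probe set or a few per gene. The strains carry mutations in factors that act on cohesin or on the ribosomal DNA: ECO1 encodes the acetyltransferase of cohesin, FOB1 a protein that halts replication forks in the ribosomal DNA, and RAD61 the factor that releases cohesin from DNA (Wapl in animals). Each of 9 groups held 3 cultures, all grown in rich medium with an amino acid supplement, with no low-oxygen treatment named. The labels give an experiment date, called here April and June.

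In June the groups were eco1-W216G (called an eco1 mutant in the sample labels, strain SG156), the fob1 deletion (JG1830) and wild type (w303a). In April they were eco1-W216G with the fob1 deletion (BH664), eco1-W216G with the rad61 deletion (SG272.1), the rad61 deletion (SG297.1), mcd1 fob1 REC8 (JG1856), mcd1 REC8 (JG1857) and the fob1 deletion (JG1830 again). In the REC8 strains the labels name Rec8, the meiotic relative of the cohesin subunit Mcd1, expressed from the MCD1 promoter. Each genotype is 1 strain, so the spread is between cultures of that strain. No wild type was run in April, and neither eco1 double mutant was run in June.

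Array medians ran from 1226.55 to 1276.5 intensity, and the lowest correlation between arrays of a group was 0.986. Of the 5 genes named in the strain labels, 3 had low signal where the labels place a change. ECO1 group means were 4.61 to 4.92 (log2 intensity) in 3 groups, against 7.85 to 8.10 in the other 6. FOB1 was 3.84 to 4.22 in 4 groups, against 9.25 to 9.91 in the other 5, and RAD61 was 3.77 to 3.93 in 2 groups, against 6.80 to 7.29 in the other 7. For FOB1 and RAD61 the labels name deletions, but W216G names a change of 1 amino acid, which by itself would leave the transcript in place. What the low ECO1 signal reflects was not tested, and every eco1-W216G difference below is that of the strains with this low ECO1 signal. MCD1 was 11.01 in mcd1 fob1 REC8 and 11.001 in mcd1 REC8, against 10.96 to 11.34 in the other groups, and REC8 was 5.89 and 5.70 there, against 5.23 to 5.66, so the MCD1 signal did not mark these strains and that of REC8 stood little apart. A pair of arrays stood apart from their groups. Replicate 2 of the rad61 deletion had a median 0.82 (log2) above the other replicates over 191 probe sets of chromosome IX, which carries PAU14, TIR3 and COX5B. Those members lay 0.27, 0.73 and 0.85 above the mean of the other replicates there. Replicate 2 of the June fob1 deletion had the largest deviation from its group of all 27 arrays, with an SD over probe sets of 0.24. Results that rest on either array are given below with and without it.

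The PAU probe sets are mostly of a kind whose probes bind more than 1 gene. Of the 16, 11 carry the suffix x_at, used by the manufacturer for probes that can cross-hybridise, 2 carry s_at, used for probes shared by a gene family, and 3 carry the plain suffix at. The PAU family holds 11 of the 26 x_at probe sets tested (42.3%), and all 13 cross-hybridising members are PAU. R64 lists 24 PAU genes, of which 11 have no probe set under their own symbol here, and their RNA may be read by these sets. A value from a cross-hybridising PAU set may therefore hold the signal of several genes. PAU5, PAU17 and PAU23 have an x_at and an at set each. In eco1-W216G against wild type both sets of PAU5 were called, neither of PAU17, and of PAU23 the x_at set only. Which RNAs these sets bind was not tested. Neighbouring genes are also present, since R64 places DAN1 beside DAN4, TIR4 beside TIR2 and TIR2 beside AUS1.

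Many members were also dim. Of the 35, 13 lay below the 20th percentile of the tested probe sets by mean signal. Probe sets of different genes cannot be ranked against each other by brightness, but the group means of DAN1 (4.00 to 4.30), PAU21 (4.24 to 5.15), PAU3 (4.60 to 5.67) and HES1 (4.53 to 5.28) lie in or near the range that ECO1, FOB1 and RAD61 gave in their mutants. Differences of such sets may understate the change in RNA, but they also depend on the normalization at the low end. In eco1-W216G against wild type they were smaller after repeated quantile normalization than in the main fit given below. They were then 0.89 for PAU3, 0.78 for PAU21, 0.31 for HES1 and 0.03 for DAN1.

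The first comparison, eco1-W216G against wild type in June, asks which of these genes differ in the strain with the cohesin acetyltransferase allele. Of the cell wall genes 10 of 16 PAU sets and 4 of 6 DAN and TIR sets rose and none fell, and the 4 transcription factors fell, while the oxygen-linked enzymes split: COX5B, HEM14 and HEM13 rose and AAC3 fell. Of 35 members, 18 rose and 6 fell at adjusted p under 0.05 (limma, Benjamini-Hochberg over all probe sets). Over all tested probe sets 53.6% were called, 23.7% higher and 30.0% lower, so a call by itself is common in this comparison. The members' median difference was 0.31 (log2), against -0.05 over all tested. A culture is measured as a whole, so more RNA in every cell and RNA in more of the cells cannot be told apart.

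The regulators come first, since they stand above the other members. ROX1, the heme-induced repressor, measured 9.81, 9.76 and 9.96 (log2 intensity) in the 3 eco1-W216G arrays, against 10.16, 10.19 and 10.36 in wild type. MOT3, the repressor of anaerobic cell wall genes, measured 8.47, 8.48 and 8.36 in eco1-W216G, against 9.03, 8.73 and 9.001 in wild type. SUT1, a regulator of sterol uptake and of hypoxic genes, measured 8.36, 8.17 and 8.49 in eco1-W216G, against 8.76, 8.77 and 8.81 in wild type. For each of these, all eco1-W216G arrays lay below all wild-type arrays. MOT3 differed by -0.49 ± 0.11 (log2, SE; adjusted p = 0.000879), SUT1 by -0.44 ± 0.11 (adjusted p = 0.00158) and ROX1 by -0.39 ± 0.10 (adjusted p = 0.00308). SUT2, a relative of SUT1, differed by -0.28 ± 0.11 with adjusted p = 0.0448, and this call was lost when any 1 of 5 of the 6 arrays was left out (adjusted p up to 0.126). All 4 regulators fell, repressors and activators alike, with a median of -0.42.

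The seripauperins had the highest median difference of the classes. Of their 16 probe sets 10 rose, none fell at the threshold, and the median difference was 0.58. Since these sets can read each other's RNA, their calls are not independent of one another. The x_at set of PAU5 measured 7.47, 7.21 and 7.77 in eco1-W216G, against 6.04, 5.97 and 5.86 in wild type. Its at set, which carries no mark of cross-hybridisation, measured 7.89, 7.90 and 7.89 in eco1-W216G, against 6.71, 6.67 and 6.68 in wild type. PAU2 measured 8.43, 8.34 and 8.46 in eco1-W216G, against 7.22, 7.22 and 7.06 in wild type. In all 3 sets the groups were far apart compared with the spread within them. The PAU5 x_at set was 2.88-fold higher, a log2 difference of 1.53 ± 0.18 (adjusted p = 6.23e-07), and the at set differed by 1.21 ± 0.11 (adjusted p = 8.15e-09). PAU2 differed by 1.25 ± 0.19 (adjusted p = 1.23e-05).

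The other PAU sets formed a graded series. PAU4 and PAU3 differed by 1.08 ± 0.17 and 1.07 ± 0.16, PAU21 by 0.91 ± 0.13 and PAU7 by 0.70 ± 0.19, all called. PAU18, PAU24 and the x_at set of PAU23 differed by 0.59, 0.58 and 0.55 and were called too. The 6 sets not called were PAU9 (0.23), PAU14 (0.21), both sets of PAU17 (0.15 for x_at and 0.01 for at), the at set of PAU23 (0.01) and PAU8 (-0.11). The PAU23 sets differed: the x_at set had group means of 9.61 in eco1-W216G and 9.06 in wild type, and the at set 13.40 in eco1-W216G and 13.39 in wild type. PAU17 gave no call in either set.

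Of the 10 PAU sets that rose 9 were dim, and dim sets as a whole behaved differently in these arrays. The tenth percentile of log2 intensity was 7.55 to 7.56 in the eco1-W216G arrays, against 7.15 to 7.30 in the wild-type arrays. Among all 1143 dim probe sets tested, 372 (32.5%) rose and 233 fell, with a median of 0.04, and among the 13 dim members 11 (84.6%) rose and none fell, with a median of 0.70. When all arrays were quantile normalized again, 294 (25.7%) of the dim sets rose and 387 fell, with a median of -0.08. The dim members then had 9 calls (69.2%), all higher, with a median of 0.52. PAU18 then differed by 0.26 (adjusted p = 0.107) and PAU24 by 0.29 (adjusted p = 0.098), so these calls were lost, and the PAU5 x_at set differed by 1.21. The part of the low-end shift in the PAU differences was not tested further.

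**Figure D1:**
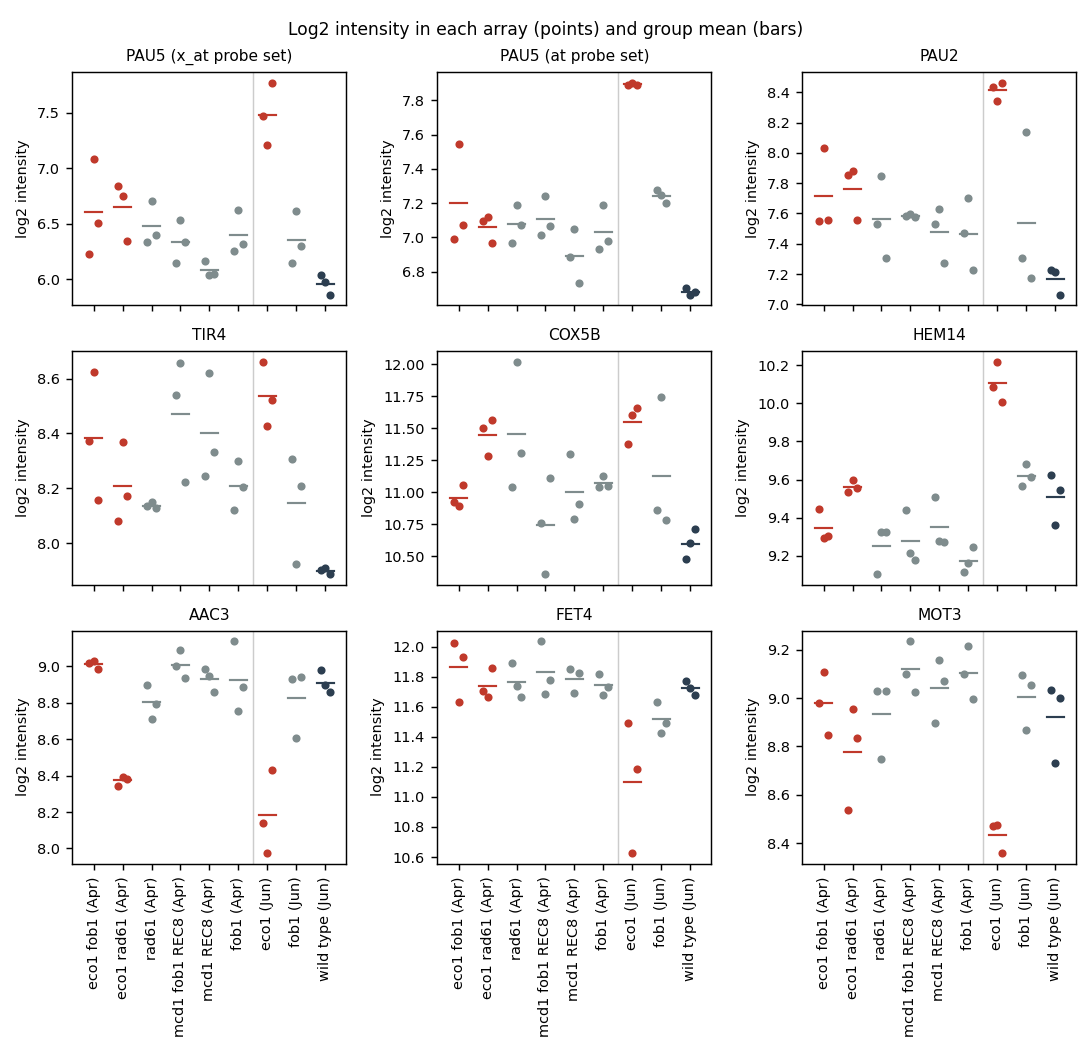
Log2 intensity (vertical axis, a separate range for each panel) of 9 member probe sets in each of the 27 arrays, by genotype and date. Points are arrays, bars are group means of 3, and the grey line parts April (left) from June (right); the 3 eco1-W216G arrays of June are the highest for the PAU5 at set, at 7.89 to 7.90, and the lowest for MOT3, at 8.36 to 8.48.

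The DAN and TIR genes encode mannoproteins of the anaerobic cell wall, and 4 of their 6 probe sets rose, with a median of 0.40. TIR4 differed by 0.64 ± 0.12 (adjusted p = 0.000195), TIR3 by 0.48 ± 0.17 (adjusted p = 0.0181) and DAN4 by 0.31 ± 0.12 (adjusted p = 0.0311). TIR1, known as a cold-shock and anaerobic wall protein, measured 10.04, 9.75 and 10.27 in eco1-W216G, against 9.58, 9.61 and 9.39 in wild type. These arrays did not overlap, and the difference of 0.49 ± 0.19 had adjusted p = 0.0377. Leaving out 1 array ended the call of TIR1 for 5 of the 6 arrays (adjusted p up to 0.164), and those of TIR3 and DAN4 for 3 each (up to 0.0766 and 0.147). DAN1, a strictly anaerobic member in standard growth, measured 4.23, 4.32 and 4.15 in eco1-W216G, against 4.11, 4.22 and 4.03 in wild type. Its groups overlapped, and at 0.11 ± 0.09 (adjusted p = 0.286) the difference was not called. TIR2 differed by 0.23 ± 0.11 (adjusted p = 0.095).

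Of the oxygen-linked enzymes, COX5B had the largest difference. COX5B encodes the low-oxygen form of a cytochrome c oxidase subunit, and it measured 11.38, 11.60 and 11.66 in eco1-W216G, against 10.48, 10.60 and 10.71 in wild type. HEM13, coproporphyrinogen oxidase of heme synthesis, measured 11.10, 10.82 and 11.04 in eco1-W216G, against 10.48, 10.67 and 10.47 in wild type. HEM14, the enzyme of the following step, measured 10.09, 10.22 and 10.01 in eco1-W216G, against 9.62, 9.36 and 9.54 in wild type. None of these 3 genes had overlapping groups. The differences were 0.95 ± 0.23 (adjusted p = 0.00146) for COX5B, 0.45 ± 0.10 (adjusted p = 0.000584) for HEM13 and 0.59 ± 0.09 (adjusted p = 6.77e-06) for HEM14.

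AAC3 went the other way. This gene encodes the ADP/ATP carrier of mitochondria that is made without oxygen, and it measured 8.14, 7.97 and 8.43 in eco1-W216G, against 8.98, 8.90 and 8.86 in wild type. Every eco1-W216G array was below every wild-type array, and the gene fell by 0.73 on the log2 scale (SE 0.10, adjusted p = 4.99e-06), to a level 1.66-fold lower. ANB1, the low-oxygen form of a translation factor, measured 9.36, 9.24 and 9.78 in eco1-W216G, against 9.09, 9.30 and 9.22 in wild type. OLE1, the fatty acid desaturase, measured 13.56, 13.73 and 13.67 in eco1-W216G, against 13.70, 13.80 and 13.72 in wild type. Both overlapped, with differences of 0.26 ± 0.16 (adjusted p = 0.187) for ANB1 and -0.09 ± 0.08 (adjusted p = 0.386) for OLE1.

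Uptake genes did not move together either. FET4, the low-affinity iron transporter, measured 11.49, 10.63 and 11.19 in eco1-W216G, against 11.77, 11.73 and 11.68 in wild type. The eco1-W216G arrays were all lower but spread widely, and the difference was -0.62 ± 0.14 (adjusted p = 0.00109). AUS1, an importer of sterol in anaerobic cells, measured 9.88, 9.74 and 9.94 in eco1-W216G, against 9.89, 9.89 and 9.62 in wild type. These overlapped, at 0.06 ± 0.08 (adjusted p = 0.555). HES1, of the oxysterol-binding protein family, rose by 0.42 ± 0.11 (adjusted p = 0.00389).

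The arrays can also be compared by rank alone. In 20 of 35 members all eco1-W216G arrays lay above all wild-type arrays, in 6 all lay below, and in 9 the groups overlapped. Over all tested probe sets these shares were 29.4% above and 36.9% below. With the 13 cross-hybridising sets left out, 9 of 22 members rose and 6 fell, and the median was 0.17 in place of 0.31.

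**Figure D2:**
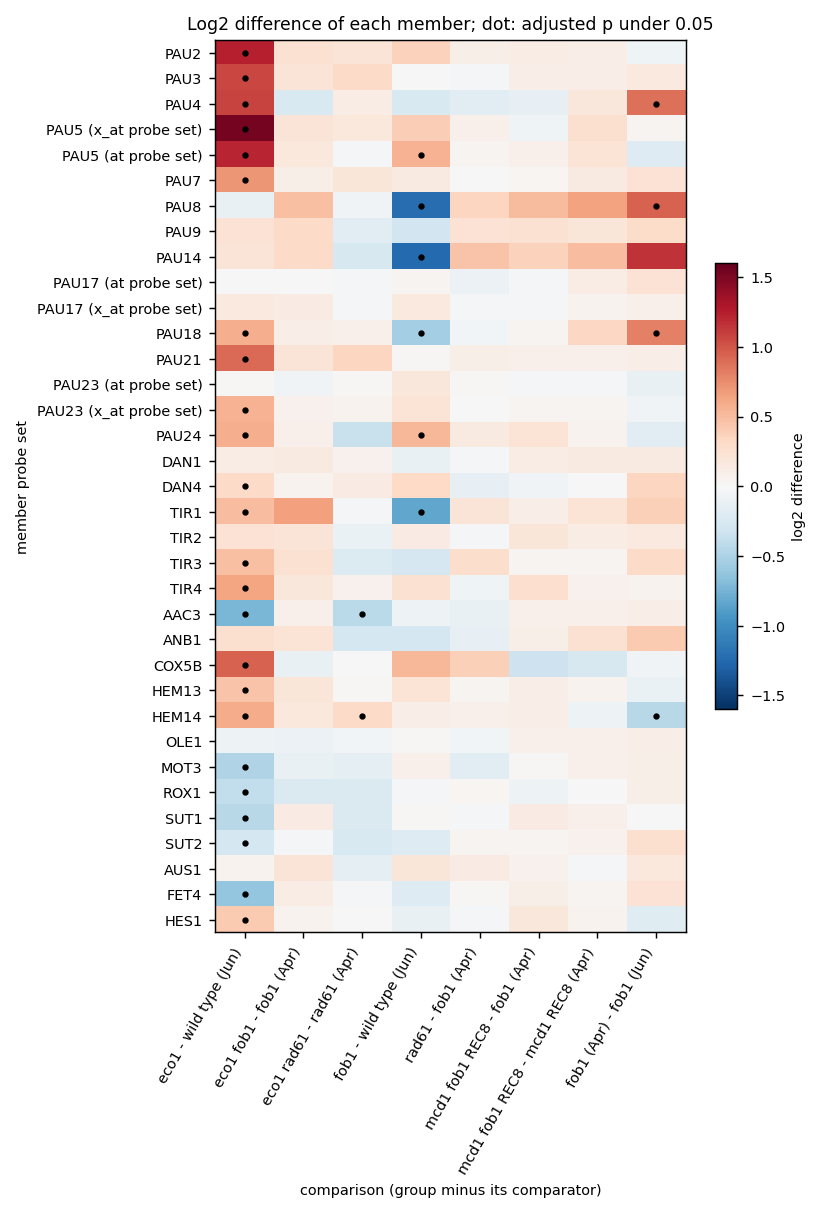
Log2 difference (colour, red higher and blue lower) of each of the 35 member probe sets, in rows, for 8 comparisons in columns, with a dot where limma's adjusted p was under 0.05. The first column, eco1-W216G against wild type, holds 24 dots, the fob1 deletion against wild type 6, and the columns of the eco1 fob1 strain, of rad61 against fob1 and of the REC8 strains hold none.

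The fob1 deletion against wild type, also in June, asks how these genes differ when the fork barrier protein is missing. The at set of PAU5 and PAU24 rose, and PAU14, PAU8, PAU18 and TIR1 fell. Of 35 members, 2 rose and 4 fell (17.1%), near the background of 15.6% called over all probe sets, 8.73% higher and 6.91% lower. The members' median was 0.02, the same as over all tested. This group contains the June array that stood apart, and the size of each difference but that of PAU5 moved when it was left out.

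PAU14 measured 9.84, 7.75 and 10.0001 in the fob1 deletion, against 10.51, 10.45 and 10.38 in wild type. PAU8 measured 6.53, 5.18 and 6.51 in the fob1 deletion, against 7.23, 7.35 and 7.29 in wild type. TIR1 measured 8.96, 8.18 and 8.95 in the fob1 deletion, against 9.58, 9.61 and 9.39 in wild type. In each, replicate 2 was far below the other replicates of the deletion, and those in turn lay below all wild-type arrays. The differences were -1.25 ± 0.34 (adjusted p = 0.0182) for PAU14, -1.22 ± 0.26 (adjusted p = 0.00602) for PAU8 and -0.83 ± 0.19 (adjusted p = 0.00914) for TIR1. Without replicate 2 they were -0.53 (adjusted p = 0.0523) for PAU14, -0.77 (adjusted p = 0.0242) for PAU8 and -0.57 (adjusted p = 0.0538) for TIR1. With the rad61 array that stood apart left out as well, which changes the common spread but not these differences, the adjusted p was 0.0417 for PAU14 and 0.0496 for TIR1.

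On the higher side, the at set of PAU5 measured 7.27, 7.25 and 7.20 in the fob1 deletion, against 6.71, 6.67 and 6.68 in wild type. PAU24 measured 7.56, 8.08 and 7.38 in the fob1 deletion, against 7.21, 7.24 and 6.96 in wild type. The PAU5 set was tight in both groups, whereas PAU24 was again extreme in replicate 2. The x_at set of PAU5, with group means of 6.35 in the fob1 deletion and 5.96 in wild type, was not called. The at set of PAU5 differed by 0.56 ± 0.11 (adjusted p = 0.0032) and by 0.56 without replicate 2 (adjusted p = 0.0109), and PAU24 by 0.54 ± 0.15 (adjusted p = 0.0191) and by 0.33 without it (adjusted p = 0.124). PAU18 differed by -0.54 ± 0.14 (adjusted p = 0.0121), and by -0.35 without it (adjusted p = 0.074). Of the 6 calls, those of PAU5 and PAU8 were left without that array, and 4, with PAU14 and TIR1, without both arrays that stood apart. In 9 members all arrays of the deletion were above wild type and in 6 all were below, where all tested probe sets gave 18.2% above and 13.9% below.

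The regulators and oxygen-linked enzymes of the fob1 deletion had no calls. ROX1 measured 10.26, 10.03 and 10.34, MOT3 9.10, 8.87 and 9.06, and SUT1 8.88, 8.66 and 8.85 in the June fob1 deletion. All 3 spanned or overlapped their wild-type values given above. COX5B measured 10.86, 11.74 and 10.78 there, with replicate 2 the highest, and its difference of 0.53 ± 0.23 from wild type had adjusted p = 0.114.

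**Figure D3:**
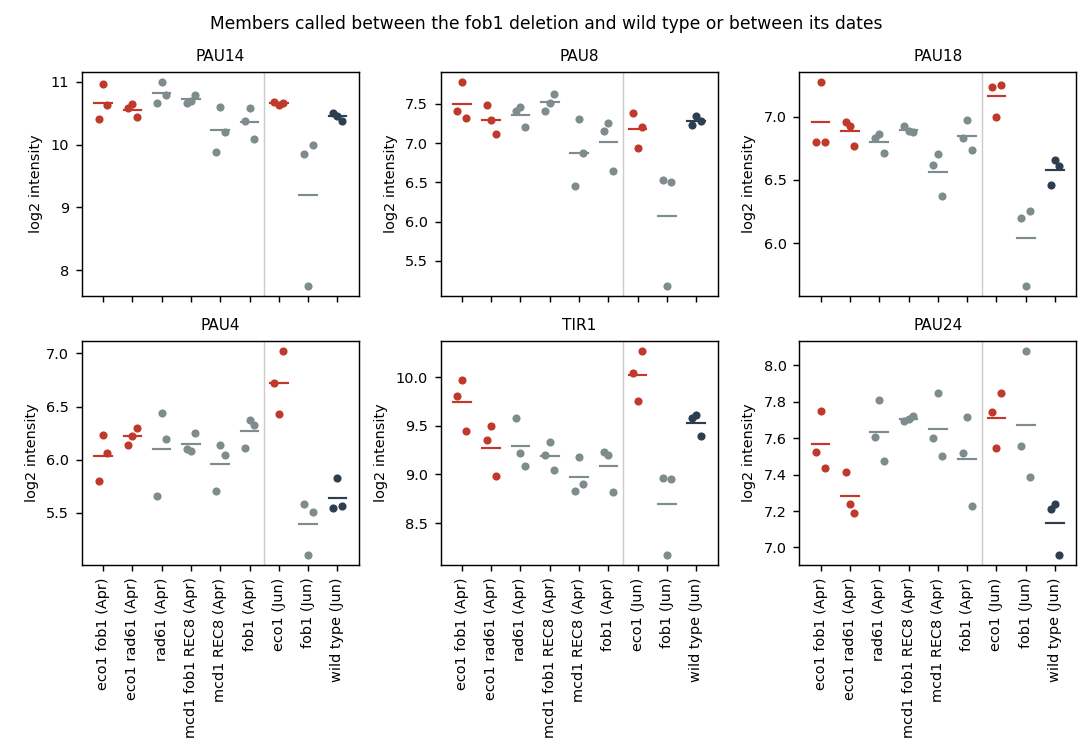
Log2 intensity (vertical axis, a separate range for each panel) in each of the 27 arrays for 6 members called between the fob1 deletion and wild type or between the dates of the fob1 deletion; points are arrays, bars group means of 3, and the grey line parts April from June. In the June fob1 deletion, replicate 2 stands far below the other replicates for PAU14, at 7.75, and above them for PAU24, at 8.08.

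The same eco1 allele was next compared within strains that lack FOB1 or RAD61, both in April. With FOB1 deleted, eco1-W216G gave no call among the 35 members against the fob1 deletion alone, 0 in either direction by limma, with 4 at an unadjusted p under 0.05. Over all probe sets 0.787% were called, 0.490% higher and 0.297% lower, and 637 of 5716 had an unadjusted p under 0.05. The members' median was 0.13, against 0.01 over all tested. TIR1 had the largest difference and measured 9.81, 9.97 and 9.44 in the eco1 fob1 strain, against 9.23, 9.20 and 8.82 in the fob1 deletion. Those arrays did not overlap, and the difference was 0.66 ± 0.19 with adjusted p = 0.145. In 10 members all eco1 fob1 arrays lay above those of the fob1 deletion and in 1 (ROX1) below, at 11.2% and 8.07% over all probe sets.

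In this background several members with large differences in eco1-W216G against wild type overlapped their comparator. PAU2 differed by 0.25 ± 0.19 (adjusted p = 0.725) and the at set of PAU5 by 0.17 ± 0.11 (adjusted p = 0.637), both with overlapping arrays. The x_at set of PAU5 measured 6.22, 7.08 and 6.50 in the eco1 fob1 strain, against 6.26, 6.63 and 6.31 in the fob1 deletion. PAU4 measured 5.80, 6.24 and 6.06 in the eco1 fob1 strain, against 6.11, 6.38 and 6.33 in the fob1 deletion. AAC3 measured 9.02, 9.03 and 8.99 in the eco1 fob1 strain, against 9.14, 8.76 and 8.88 in the fob1 deletion. In all 3 the groups overlapped. ROX1 measured 10.03, 10.10 and 10.06 in the eco1 fob1 strain, against 10.23, 10.31 and 10.36 in the fob1 deletion, a difference of -0.23 ± 0.10 (adjusted p = 0.396).

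With RAD61 deleted, 2 members passed the threshold when eco1-W216G was added: AAC3 fell and HEM14 rose, at a background of 6.72% called, 5.18% higher and 1.54% lower. The members' median was -0.02, against -0.01 over all tested. An unadjusted p under 0.05 was reached by 7 of 35 members and by 1323 of all 5716 probe sets. AAC3 measured 8.34, 8.39 and 8.38 in the eco1 rad61 strain, against 8.90, 8.71 and 8.79 in the rad61 deletion. HEM14 measured 9.53, 9.60 and 9.56 in the eco1 rad61 strain, against 9.11, 9.32 and 9.32 in the rad61 deletion. Both pairs of groups were apart, and both genes moved the same way as in eco1-W216G against wild type. AAC3 differed by -0.43 ± 0.10 (adjusted p = 0.0141) and HEM14 by 0.31 ± 0.09 (adjusted p = 0.0304). In 1 member all eco1 rad61 arrays lay above the rad61 deletion and in 5 below, at 15.4% and 10.8% over all probe sets.

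The rad61 deletion holds the array with the raised chromosome IX. Without it, 4 members were called: AAC3 at -0.47 (adjusted p = 0.0138), HEM14 at 0.35 (adjusted p = 0.0259), PAU3 at 0.53 (adjusted p = 0.0273) and PAU21 at 0.47 (adjusted p = 0.0344). Same-numbered arrays of these strains deviate together. With the replicate number as a block common to all groups, which does not pair these strains by themselves, AAC3, HEM14 and PAU21 (0.34, adjusted p = 0.0372) were called. COX5B, on chromosome IX, measured 11.51, 11.28 and 11.56 in the eco1 rad61 strain, against 11.04, 12.02 and 11.31 in the rad61 deletion, with the highest value of all in that array. The at set of PAU5 measured 7.10, 7.12 and 6.97 in the eco1 rad61 strain, against 6.97, 7.19 and 7.07 in the rad61 deletion, and PAU2 measured 7.86, 7.88 and 7.56, against 7.53, 7.85 and 7.30. Neither separated the strains.

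Whether the eco1 difference was smaller without FOB1 or RAD61 than in wild type was tested directly, as the difference of differences. These tests set April against June as well as deletion against wild type, and the date and the background cannot be told apart in them. Both also subtract the same eco1-W216G minus wild type difference, so they are not independent of each other. Without FOB1, 10 members had a lower difference than in wild type and 3 a higher one, at a background of 39.2% called, 21.2% higher and 18.0% lower; the median was -0.07, against 0.05 over all tested. Without RAD61 there were 12 lower and 1 higher, at 23.5% called, 11.8% higher and 11.6% lower, with a median of -0.40, against 0.03.

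PAU sets, 16 of the 35 members, made up 7 of the 13 calls without FOB1 and 8 of the 13 without RAD61, all lower. That is 43.8% of the PAU sets without FOB1, near the 39.2% called over all tested. Without RAD61 it is 50.0%, against 23.5%. All of these called PAU sets but the x_at set of PAU23 are dim. Among all 1143 dim sets, 155 were higher and 282 lower without FOB1, and 80 and 248 without RAD61. After repeated quantile normalization these were 242 and 223, and 185 and 183, while 6 dim members were called lower in each. Without RAD61, PAU3 (limma adjusted p = 0.0548) and PAU21 (adjusted p = 0.0757) then lost their calls, and PAU4 was at -0.65. For the x_at set of PAU5 the eco1 difference was 0.20 without FOB1 and 0.17 without RAD61, against 1.53 in wild type. The differences of differences were -1.32 ± 0.26 (adjusted p = 0.000435) without FOB1 and -1.36 ± 0.26 (adjusted p = 0.000799) without RAD61. PAU4 had an eco1 difference of -0.24 without FOB1 and 0.12 without RAD61, against 1.08 in wild type, and differences of differences of -1.32 ± 0.25 and -0.96 ± 0.25, both called. COX5B had -0.12 without FOB1, against 0.95 in wild type, a change of -1.06 ± 0.32 (adjusted p = 0.0123). Without RAD61 its change was -0.95 ± 0.32 (adjusted p = 0.0352), and -0.67 without the rad61 array that stood apart, with adjusted p = 0.107, or adjusted p = 0.0277 when the June fob1 array was left out too. Of the 35 members 6 were called without that rad61 array and 11 without both.

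Among genes that fell in eco1-W216G, FET4 measured 12.02, 11.63 and 11.93 in the eco1 fob1 strain, against 11.82, 11.68 and 11.73 in the fob1 deletion. SUT1 measured 8.80, 9.14 and 8.86 in the eco1 fob1 strain, against 8.78, 8.89 and 8.74 in the fob1 deletion. Both overlapped. The differences of differences without FOB1 were 0.81 ± 0.15 for AAC3, 0.74 ± 0.20 for FET4 and 0.57 ± 0.15 for SUT1, all called. Without RAD61 only FET4 was called on this side, at 0.60 ± 0.20 (adjusted p = 0.0373), and AAC3, which fell in that background as well, was not. ROX1 and SUT2 were called in neither test.

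**Figure D4:**
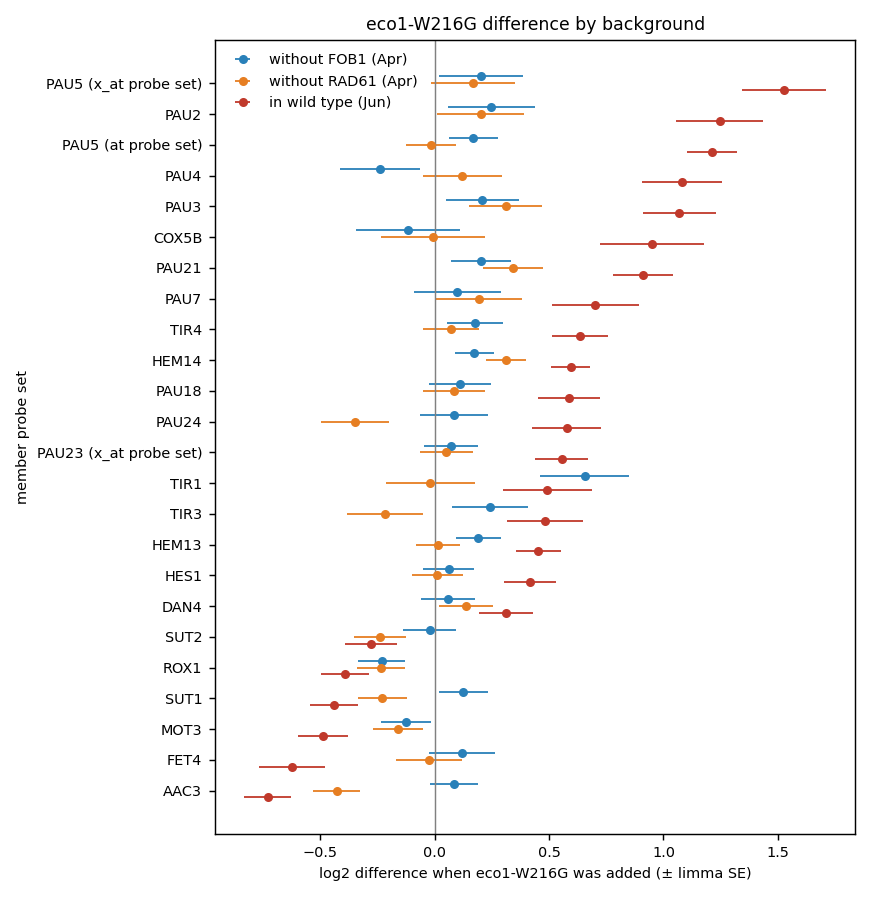
Log2 difference made by eco1-W216G (horizontal axis, points with limma SE) without FOB1 and without RAD61 in April and in wild type in June, for the 24 members called in wild type, ordered by that value. The wild-type points run from 1.53 for the PAU5 x_at set to -0.73 for AAC3, and the points of the deletion strains lie nearer to 0 for most members, with TIR1 without FOB1 at 0.66 an exception. These members were chosen by their wild-type difference, so smaller differences in the other backgrounds can follow from the choice alone.

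The comparisons among the April strains without the eco1 allele gave no member call. For the rad61 deletion against the fob1 deletion limma called 0 members, with 0 at an unadjusted p under 0.05, at 0.0350% called over all probe sets (0.0175% in each direction). Arrays of the groups did not overlap in 2 members, both higher in the rad61 deletion, at 3.99% higher and 4.65% lower over all probe sets. For mcd1 fob1 REC8 against the fob1 deletion limma called 0, with 1 (TIR4) at an unadjusted p under 0.05, at 0.297% called (0.0875% higher and 0.210% lower). There 4 members lay wholly above and 0 below, at 11.3% and 6.37% over all probe sets. For mcd1 fob1 REC8 against mcd1 REC8 limma called 0, with 2 (PAU8 and PAU18) at an unadjusted p under 0.05, at 0.0175% called. In that pair 5 members lay wholly above and 0 below, at 5.79% and 3.41% over all probe sets. Over all 5716 probe sets 279, 458 and 173 had an unadjusted p under 0.05 in these comparisons, in that order. The member medians were 0.02, 0.08 and 0.08. PAU8 measured 7.41, 7.51 and 7.63 in mcd1 fob1 REC8, against 6.45, 7.31 and 6.87 in mcd1 REC8, so the groups were apart, but the difference of 0.64 ± 0.26 had adjusted p = 0.994.

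The fob1 deletion was run on both dates, which gives the difference between April and June with genotype held the same. PAU4, PAU8 and PAU18 were higher in April and HEM14 was lower, 4 calls of 35, at a background of 4.81%, 1.82% higher and 2.99% lower. Over all probe sets that is 104 higher and 171 lower, a split that turned to 141 higher and 88 lower when each array was centred on its median, while the member calls stayed at 3 higher and 1 lower. PAU8 measured 7.15, 7.26 and 6.64 in April, against 6.53, 5.18 and 6.51 in June. PAU4 measured 6.11, 6.38 and 6.33 in April, against 5.58, 5.11 and 5.50 in June, and PAU18 measured 6.83, 6.98 and 6.74 in April, against 6.20, 5.66 and 6.25 in June. HEM14 measured 9.12, 9.16 and 9.25 in April, against 9.57, 9.68 and 9.61 in June. All 4 separated the dates, and replicate 2 of June was the lowest array for each PAU gene here.

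The size of the date difference was 0.95 ± 0.26 for PAU8, 0.88 ± 0.17 for PAU4, 0.81 ± 0.14 for PAU18 and -0.45 ± 0.09 for HEM14. Without the June array that stood apart, PAU18 (0.62, adjusted p = 0.0149) and HEM14 (-0.42, adjusted p = 0.0344) were called, and PAU4 (0.73, adjusted p = 0.0515) and PAU8 (0.50, adjusted p = 0.205) were not. Without both arrays that stood apart PAU4 was called as well (adjusted p = 0.0268). PAU14 differed by 1.16 ± 0.34 with adjusted p = 0.0549. In 9 members all April arrays lay above June and in 3 below, at 8.41% and 15.0% over all probe sets. Levels below are therefore read across dates only as a description.

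Over the 9 groups, eco1-W216G of June had the highest mean for 17 of 35 members and for 10 of 16 PAU sets, against 24.9% of all tested probe sets. Wild type had the lowest mean for 17 of 35 members and for 11 of 16 PAU sets, against 20.9% of all tested. The June fob1 deletion was lowest for 5 PAU sets (PAU4, PAU8, PAU9, PAU14 and PAU18), against 5.34% of all tested. In each of these its replicate 2, the array that stood apart, was the lowest of the group. For the mean over the 16 PAU sets, the arrays ran from 8.51 to 8.66 in eco1-W216G, from 7.87 to 7.99 in the June fob1 deletion and from 7.94 to 8.05 in wild type. Arrays of the 6 April groups ran from 8.002 in mcd1 REC8 to 8.57 in the eco1 fob1 strain and overlapped one another and, at the ends, wild type and eco1-W216G, so no order among them is given. The mean over the 4 regulators ran from 8.96 to 9.10 in eco1-W216G, against 9.38 to 9.48 in wild type, and from 9.13 to 9.37 in the eco1 rad61 strain, against 9.42 to 9.52 in the rad61 deletion.

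Members with no call in any comparison were AUS1, OLE1, DAN1, ANB1, TIR2, PAU9, both sets of PAU17 and the at set of PAU23. AUS1 had its highest group mean, 10.35, in the eco1 fob1 strain and its lowest, 9.80, in wild type. OLE1 was highest in mcd1 fob1 REC8, at 13.94, and lowest in eco1-W216G, at 13.65, and DAN1 lay between 4.30 in the eco1 fob1 strain and 4.00 in the June fob1 deletion. ANB1 lay between 8.92 in the eco1 rad61 strain and 9.55 in the eco1 fob1 strain. Its arrays measured 9.14, 8.80 and 8.82 in the eco1 rad61 strain, against 9.44, 9.09 and 9.08 in the rad61 deletion, so the groups overlapped, while each eco1 rad61 array lay below the rad61 array of the same number. ANB1 differed by -0.29 there and was not called with or without the replicate block. That block is common to all groups and does not pair these strains, and a paired test was not run.

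Other genes of oxygen, heme and sterol response, 43 in all, put the members in their pathway. In eco1-W216G against wild type 10 rose and 15 fell (58.1% called, near the 53.6% of all tested probe sets), with a median of -0.10. Among 11 regulators 6 fell and 1 rose (63.6% called): HAP1, the heme-dependent activator, differed by -0.64, CYC8 and TUP1, the corepressor, by -0.62 and -0.32, and MGA2 and SPT23, activators of OLE1, by -0.60 and -0.32. ECM22, a sterol regulator, differed by -0.36, and HAP4, the activator of respiration genes, by 0.64. UPC2 differed by -0.07 and was not called (limma adjusted p = 0.673), and neither were HAP2, HAP3 and HAP5. In the list of aerobic and heme-activated genes 7 of 10 were higher, at 23.7% higher over all tested. The largest differences were those of CYC7, a cytochrome c made at low oxygen and under stress, at 2.06, CYB2, lactate dehydrogenase, at 1.34 and HMX1, heme oxygenase, at 1.25. AAC1 (0.59), CYC1 (0.37) and PET9 (0.19) rose less, and CYT1 and HYP2 were not called. COX5A, the aerobic counterpart of COX5B, was also higher, by 0.35. In this class CYB5 fell, at -0.33.

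Heme synthesis outside HEM13 and HEM14 was mixed, with HEM4 at 0.52, HEM3 at -0.61 and HEM1 at -0.29 called of 6 genes. Of 11 sterol genes 4 fell (36.4%, at 30.0% lower over all tested) and none rose at the threshold: ARE2 by 0.65, NCP1 by 0.35, HMG1 by 0.23 and ERG11 by 0.18 on the log2 scale. Among 5 other anaerobic wall or uptake genes, TIP1, a relative of the TIR genes, rose by 0.78, while FET3, the high-affinity iron oxidase, differed by -0.55 and PMT5 by -0.39. When eco1-W216G was added without RAD61, 6 of the 43 (14.0%, at 6.72% over all tested) were called (4 higher, with CYC7 at 0.90 and HAP4 at 0.74, and 2 lower, with UPC2 at -0.45 and HAP1 at -0.25). Without FOB1 TIP1 alone was called, at 0.37 (2.33%, at 0.787% over all tested). The fob1 deletion against wild type called 6 of the 43, 5 higher and 1 lower (14.0%, near the 15.6% of all tested).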

How the data were processed

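The authors deposited 1 intensity per probe set and array, on a linear scale, made with RMA; the submitters' processing notes name R 2.15.2; whether both dates were normalized together, and the probe annotation used, are not given in the sources used here. Of 5814 probe sets, 51 control and 47 reporter sets were removed, which left 5716 for the tests. The design assumed log2 values, so log2 of the deposited intensity was taken. The platform table gave 5498 probe sets 1 symbol and 218 none; all 35 members match R64 symbols, used only for names, chromosomes and neighbours. No genome or probe sequence was used here.

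A limma fit (version 3.58.1, R 4.3.3) over 9 group means left 18 degrees of freedom for the spread. Its two-sided p-values were adjusted by Benjamini-Hochberg over all 5716 probe sets within each comparison, and a member under 0.05 is called. The fit was tested on simulated data. An intensity array has no depth; the number of arrays limits the precision.

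Values in every array are given for ROX1, MOT3, SUT1, HEM13, ANB1, AAC3, OLE1, DAN1, TIR1, FET4, COX5B and AUS1 in eco1-W216G and wild type, and elsewhere where a result turns on them, and for the 3 highest and 3 lowest called members of each comparison. Any other gene given by array was chosen after its values were seen. The members and lists were chosen with earlier results of these data known.

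Same-numbered arrays deviated together (every correlation over 0.1) in the eco1 fob1 and fob1 (0.35 to 0.64) and the eco1 rad61 and rad61 strains (0.32 to 0.38). The same held for rad61 and fob1 (0.11 to 0.57) and both REC8 strains (0.14 to 0.55). The main fit did not pair the arrays, so its SEs and p-values are unpaired in every comparison. The replicate block, run as an alternative, fits a common effect of the replicate number over all 9 groups. It does not pair the arrays of a single comparison, and no paired test was run. Alternatives were a replicate block, a fit on only the compared groups, removal of dim sets, repeated quantile normalization, median centring, a trended and robust prior, no cross-hybridising sets, leaving out each array, and, chosen after seeing the data, leaving out both arrays that stood apart.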

Additional observations from a re-analysis of the deposited data

Results flagged for a closer look

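The difference made by eco1-W216G differed between wild type (June) and the deletion strains (April) for 26 combinations of member and background by limma's test of that difference, adjusted over all probe sets. These are 13 of 35 members (37.1%) in each background. Over all tested probe sets 39.2% were called without FOB1, slightly more than among the members, and 23.5% without RAD61. Date and background cannot be told apart in these tests.

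Without FOB1 the eco1 difference was lower than in wild type by the following log2 amounts: -1.32 for the x_at set of PAU5 and for PAU4, -1.06 for COX5B, -1.04 for the at set of PAU5, -0.998 for PAU2 and -0.86 for PAU3. Smaller changes were -0.71 for PAU21, -0.48 for the x_at set of PAU23, -0.46 for TIR4 and -0.42 for HEM14. It was higher by 0.81 for AAC3, 0.74 for FET4 and 0.57 for SUT1, genes that fell in eco1-W216G.

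Without RAD61 the changes were -1.36 for the x_at set of PAU5, -1.23 for its at set, -1.04 for PAU2, -0.96 for PAU4, -0.95 for COX5B, -0.93 for PAU24 and -0.76 for PAU3. Further changes were -0.70 for TIR3, -0.57 for PAU21 and for TIR4, -0.50 for the x_at set of PAU23 and -0.44 for HEM13, with FET4 at 0.60. Without the rad61 array whose chromosome IX was raised, 6 of these 13 were called: both PAU5 sets, PAU2, PAU4, PAU24 and TIR4. TIR3 was then at -0.46 (adjusted p = 0.0999). Without both arrays that stood apart 11 members were called, among them TIR3 (adjusted p = 0.0499), PAU3 and COX5B.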

How the results depend on the processing

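No member call changed its direction under the alternatives run. In eco1-W216G against wild type 18 of 24 called members passed under every alternative, and those that did not were PAU18, PAU24, DAN4, SUT2, TIR1 and TIR3. For the difference of differences this held for 11 of 13 without FOB1 and 5 of 13 without RAD61, and for none of the 6 calls in the fob1 deletion, the 4 between its dates and the 2 in the eco1 rad61 strain. With dim sets left out (4573 kept, 1143 removed), 22 members remained. The calls were then 13 for eco1-W216G (7 higher and 6 lower, in place of 18 and 6), 2 for the fob1 deletion (both lower) and 2 between its dates (1 each way). For the difference of differences they were 6 without FOB1 (3 higher and 3 lower, in place of 3 and 10) and 5 without RAD61 (1 higher and 4 lower, in place of 1 and 12). Over all 4573 kept sets the calls were 2494, 828, 284, 1840 and 1017, in the same order. PAU4, PAU8 and PAU18, the higher calls between the dates, are dim, so the higher call there is of a set not called in the main fit. The median difference was 0.18 for eco1-W216G and -0.19 for the difference of differences without RAD61 in that setting, and 0.17 and -0.19 without cross-hybridising sets. With only the arrays compared in the fit, the counts were 0 for the fob1 deletion and 0 between its dates, where 1 and 0 of all probe sets were called, and 1 in the eco1 rad61 strain, with fewer residual degrees of freedom. With both arrays that stood apart left out, 1 member (TIR1) was called in the eco1 fob1 strain, at adjusted p = 0.0361, and 5 in the eco1 rad61 strain. Neither array belongs to the groups of the eco1 fob1 comparison. The TIR1 difference stayed at 0.66, and only the common spread and the adjusted p changed. For the eco1 rad61 strain the cause was not tested. The counts were then 4 for the fob1 deletion, 3 between its dates, and 17 and 11 for the differences of differences without FOB1 and RAD61.

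Leaving out each array in turn gave 20 to 24 calls for eco1-W216G, 2 to 8 for the fob1 deletion, 0 to 4 in the eco1 rad61 strain, 2 to 6 between the dates of the fob1 deletion, 11 to 16 for the difference of differences without FOB1 and 6 to 14 without RAD61, with 0 throughout elsewhere. The fob1 deletion had 2 calls without its replicate 2 and 3 without wild-type replicate 3. Between the dates 2 were left without replicate 2 of either date. The eco1 rad61 strain had 0 without its replicate 1 or rad61 replicate 1, 1 without its replicate 2 and 4 without rad61 replicate 2. The difference of differences without RAD61 had 8 without eco1 rad61 replicate 3, eco1 replicate 1 or wild-type replicate 3, and 6 without rad61 replicate 2. With the replicate block, counts were 24, 7, 0, 3, 0, 0, 0, 5, 15 and 13 in the order eco1-W216G, fob1 deletion, eco1 fob1, eco1 rad61, rad61, mcd1 fob1 REC8 against fob1 and against mcd1 REC8, dates, and both differences of differences. Of 108 same-numbered pairs of arrays 61 correlated above 0.1. Over all probe sets, median centring turned the split of higher and lower calls from 28 and 17 to 26 and 26 in the eco1 fob1 strain and from 5 and 12 to 5 and 20 in mcd1 fob1 REC8 against the fob1 deletion.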
